A study of Homo sapiens with 6 samples.

Results

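Band 8q24 is the distal end of the long arm of human chromosome 8, and it was taken here as the last 28.7 Mb of the chromosome (hg19). Every MYC peak whose summit lay at or beyond the start of this stretch, called the border below, was a member, and peaks that overlapped by at least 1 bp between replicates were merged into 1 place. This gave 420 places of the 27801 in all. They held 366 peaks in MYC replicate 1, 273 in replicate 2 and 264 in replicate 3, on average 301 ± 56.5 (SD, n = 3).

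The peaks were called from ChIP-seq, in which protein-bound DNA is precipitated with an antibody and sequenced, of the established medulloblastoma line ONS76. The labels give all libraries, controls included, the engineered genotype of an inducible SOX2 construct, whereas the study's ChIP methods name only ONS76 cells, and no treatment separates the groups in the labels. Chromatin was fixed with formaldehyde and precipitated with a rabbit antibody against MYC (clone Y69) in 3 libraries or with normal IgG in 3 libraries, and the peak lists of the MYC libraries were analysed. By the study's methods, precipitations from a single chromatin batch were combined. No source used here says whether the replicates were grown as separate cultures. Each p-value therefore concerns agreement between libraries only, and their differences may be technical.

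MYC is a transcription factor that binds DNA as a dimer with MAX, mostly at promoters and enhancers of active genes, and prefers the short palindromic motif called the E-box. Its own gene lies in 8q24, a band that is gained or amplified in many tumours and, in medulloblastoma, most often in aggressive forms. Genes of ribosome assembly and translation are among the best known MYC targets, and several of them, such as BOP1, RPL8 and EEF1D, also lie in 8q24. In the order of genes of RefSeq GRCh38.p14, used for names and order only, the next protein-coding genes on either side of MYC are POU5F1B, a retrogene related to the stem cell factor OCT4, and GSDMC, a gasdermin. The long noncoding RNA gene PVT1 follows MYC directly. Beyond MYC towards the chromosome end lie 17.8% of the 715 protein-coding genes of chromosome 8. Of 11 listed genes of ribosome assembly and translation, 8 lie beyond MYC, among them AGO2, which carries small RNAs in gene silencing, and MAF1, a repressor of RNA polymerase III. So do 7 of 9 listed metabolic genes and 9 of 11 listed tissue restricted genes. Of the other lists, 4 of 8 genes of cohesin, replication and cell cycle lie there. The same holds for 5 of 13 genes of the MYC neighbourhood and 10 of 10 zinc finger genes of the chromosome end. The lists were drawn up for this region, so these counts only say where their genes lie. Since annotation and peaks are in different builds, no MYC place below was tied to a gene.

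The first question was how densely MYC peaks lie in 8q24. Density was 12.8, 9.51 and 9.20 peaks per Mb in replicates 1, 2 and 3, against 7.49, 4.77 and 4.95 peaks per Mb in the rest of chromosome 8. 8q24 was the denser in each replicate, by ratios of 1.70, 1.99 and 1.86. Their mean was 1.85 ± 0.144 (SD, n = 3; exact two-sided permutation test over replicates, p = 0.25 and adjusted p = 0.25 over 7 tests). This p is the smallest that 3 replicates can give, and the same holds for each p of 0.25 below. The neighbouring window of the same length, which ends at the border, held 215, 142 and 147 peaks. A window of this length near the short arm end, from 2.9 to 31.6 Mb, came closest to 8q24, with 291, 175 and 187 peaks. In all, 8q24 held 32.4% of the 828 consensus places of chromosome 8, those with peaks from at least 2 replicates, on 19.6% of its length.

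The surplus was uneven along the band. Consensus places stood at 7.57 per Mb in the first 10.3 Mb beyond the border. They stood at 9.5 per Mb in the next 2 Mb, which hold the MYC gene on hg19 maps (background knowledge, not looked up here) and are called the inner part below. The density was 4.17 per Mb from 12.3 to 18.3 Mb beyond the border. From 18.3 to 23.3 Mb there was 1 consensus place, and the 3 lists held 7, 3 and 2 peaks. Density then climbed to 16 consensus places per Mb from 23.3 to 26.3 Mb and to 40.4 per Mb in the final 2.4 Mb. This last stretch, called the end part below, thus held 36.2% of the consensus places of 8q24 on 8.36% of its length. Without it the ratio of density to the rest of chromosome 8 was 1.30, 1.44 and 1.26, on average 1.33 ± 0.0965 (SD, n = 3). The remainder of 8q24 was still denser than the rest of the chromosome taken as a whole in 3 of 3 replicates (exact two-sided permutation test, p = 0.25, adjusted p = 0.337 over 35 added tests). It was not denser than every other stretch. The remainder had 9.70, 6.88 and 6.24 peaks per Mb in replicates 1, 2 and 3. The short arm window from 2.9 to 31.6 Mb, as long as the whole band, held 291, 175 and 187 peaks. Per Mb, that window was denser than the remainder in replicates 1 and 3 and less dense in replicate 2.

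**Figure D1:**
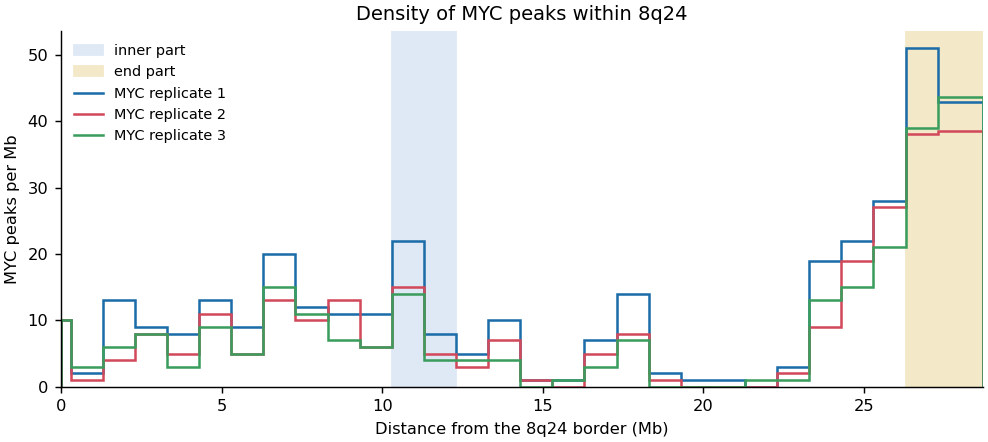
MYC peaks per Mb within 8q24 in parts of 1 Mb (first and last part of other length), with 1 line for each of the 3 MYC replicates, against the distance from the 8q24 border in Mb. The inner and the end part are shaded, and all 3 lines drop to between 0 and 3 peaks per Mb in the sparse stretch before the final rise.

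The longest stretch of 8q24 without a consensus place ran from 135918558 to 140969330, a gap of 5.05 Mb. It was not empty, since 9 places called in 1 replicate lay inside. The next longest gaps were 1.47, 1.38 and 1.07 Mb. The rest of chromosome 8 had 25 gaps over 1 Mb among 560 consensus places, against 4 among 268 in 8q24. Since 8q24 makes up 19.6% of the chromosome's length, these raw counts are not rates. The longest gap of the rest was 5.04 Mb. Whether peaks could be called all along that gap was not tested, so its likeness to the 5.05 Mb gap is not read. From 65 Mb to the border the longest gap was 4.31 Mb. Neighbouring consensus places were a median of 23.0 kb apart in 8q24 and 70.0 kb apart in the rest of the chromosome. Without the end part the median gap in 8q24 was 44.1 kb, and inside the end part it was 9.94 kb. Gaps shorter than 10 kb made up 29.2% in 8q24 against 16.8% in the rest of the chromosome. They made up 50% in the end part and 17.6% in 8q24 without it. The border itself fell in a thin stretch: the nearest place outside it, from 117577097 to 117577474, was called in replicate 1 alone with a fold enrichment of 3.48. The nearest inside, from 117767694 to 117768290, was called in all replicates with a fold of 3.92, 6.66 and 6.40.

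Reproducibility of the places was then compared. Of the 420 places in 8q24, 268 (63.8%) were in the consensus, against 62.4% over all places of the series. All 3 replicates had a peak at 194 places (46.2%), against 45.0% over the series, so both shares were near those of the whole genome. In the rest of chromosome 8 the shares were lower, with 560 of 1012 places (55.3%) in the consensus and 401 (39.6%) in all replicates. Another 36 places of 8q24 were shared by replicates 1 and 2 only, 33 by replicates 1 and 3 only and 5 by replicates 2 and 3 only. Replicate 1 alone gave 101 places, replicate 2 alone 27 and replicate 3 alone 24. Over the 27801 places of the series the pairs gave 2099, 2456 and 296, and single replicates 7721, 1321 and 1409. No result particular to 8q24 is drawn from these counts. Replicate 1 was the deepest list by its genome-wide background level. This level, the count of fragments at a site if all fragments were spread evenly, was 7.79, 5.84 and 4.76 fragments in replicates 1, 2 and 3.

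Counted by peaks, 53.6%, 75.1% and 76.5% of the peaks of 8q24 in replicates 1, 2 and 3 lay at places found in all replicates. The shares were 45.7%, 74.9% and 73.6% in the rest of chromosome 8. Their ratio was 1.17, 1.002 and 1.04, a mean of 1.07 ± 0.0884 (SD, n = 3), which is less than 1 SD from no difference (exact two-sided permutation test, p = 0.25, adjusted p = 0.25). Without the end part the mean ratio was 0.992 and the replicates differed in direction (0.944 to 1.02; exact two-sided permutation test, p = 1). Sharing followed the strength of the peak. Of the peaks of 8q24 with a −log10 p-value of 20 or more, 93.8%, 97.6% and 100% lay at places that every replicate shared. For peaks with a value below 10 the shares were 14.0%, 47.1% and 46.5%. The rest of chromosome 8 was similar, with 92.8%, 99.4% and 99.4% at 20 or more. Below 10 it had 10.3%, 48.0% and 41.6%, so this pattern is not particular to 8q24.

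Places that all replicates shared were also the stronger ones in fold enrichment, the ratio of fragments at the summit to the local background with 1 added to both. In 8q24 the median fold was 5.15, 4.83 and 5.06 at places found in 3 replicates, 3.17, 3.51 and 3.74 in 2, and 2.91, 3.09 and 3.36 in 1. Where both lists of a pair had a peak, places of 8q24 kept much of their order of log2 fold enrichment. Replicates 1 and 2 shared 230 places with a rho (Spearman) of 0.791 and an r (Pearson) of 0.865. The values were 0.800 and 0.867 over 227 places for replicates 1 and 3. They were 0.839 and 0.901 over 199 places for replicates 2 and 3. The points share their libraries, and no p-value is attached. Summits of 8q24 lay a median of 37, 37 and 30 bp apart in these pairs. In the rest of chromosome 8 the same pairs had a rho of 0.782, 0.798 and 0.791 and summits 33, 36 and 35 bp apart.

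Over the band as a whole, higher density did not come with stronger peaks. Median fold enrichment in 8q24 was 3.74, 4.22 and 4.58 in replicates 1, 2 and 3, slightly below the 3.80, 4.47 and 4.68 of the rest of chromosome 8. The ratio was 0.984, 0.945 and 0.980, a mean of 0.969 ± 0.0212 (SD, n = 3), below 1 in 3 of 3 replicates (exact two-sided permutation test, p = 0.25, adjusted p = 0.25). Against the neighbouring 52.7 Mb alone, from 65 Mb to the border and called the middle part below, the direction was lost, with ratios of 1.02, 0.965 and 1.03 (exact two-sided permutation test, p = 1). Within the band, the dense end part had the higher medians, 4.20, 4.45 and 4.75 against 3.56, 4.08 and 4.37 in the remainder. The remainder was below both, by ratios of 0.936, 0.912 and 0.935 to the rest and 0.968, 0.931 and 0.986 to the middle part. In summit fragments over the genome-wide level, which leaves the local background out, the order of the whole band and the rest was the other way round. These medians were 5.78, 6.16 and 6.94 in 8q24 against 5.39, 5.82 and 6.31 in the rest, a mean ratio of 1.08 ± 0.0211 (SD, n = 3; exact two-sided permutation test, p = 0.25, adjusted p = 0.337). Against the middle part this direction was lost too, with ratios of 1.02, 0.973 and 1.03 (exact two-sided permutation test, p = 0.75). The median summit of 8q24 held 45, 36 and 33 fragments, and single summits ranged from 23 to 386, 18 to 236 and 17 to 230. Peaks of 8q24 were also a little wider, with medians of 501.5, 454 and 453 bp against 449, 418 and 396 bp in the rest of the chromosome. The mean ratio of widths was 1.12 ± 0.0289 (SD, n = 3; exact two-sided permutation test, p = 0.25, adjusted p = 0.337), and without the end part it was 0.979 ± 0.0487 with the replicates on both sides of 1 (exact two-sided permutation test, p = 0.75).

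Strong places made up a similar share in 8q24 and elsewhere: 22 of the 194 places found in all replicates (11.3%) had a geometric mean fold of at least 10, against 46 places (11.5%) in the rest of chromosome 8 and 11.4% over the series.

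By geometric mean fold over the replicates, the strongest place of 8q24 was also the strongest of chromosome 8. It lay near the chromosome end, from 145733470 to 145735518, with a fold enrichment of 31.5, 28.8 and 33.9 in replicates 1, 2 and 3 (mean 31.4 ± 2.56, SD, n = 3). Its summits held 386, 236 and 230 fragments and fell within 13 bp of each other. Among the 12499 places of the series found in all replicates it ranked 23. It stood above every other place of 8q24 in each replicate. In the rest of chromosome 8 the highest fold was 35.5 in replicate 1, above this place. There it was 28.5 in replicate 2 and 31.3 in replicate 3, below this place.

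The second strongest place was the only one of the leading 8 in the inner part. From 128806376 to 128808890, it reached 18.0, 17.4 and 24.4 (mean 19.9 ± 3.84, SD, n = 3), with summits within 22 bp, and ranked 166. The place ranked 3, from 144678117 to 144680608, gave 18.6, 16.7 and 19.1. Places 2 and 3 held this order in 2 of 3 replicates and were not separated by their spread. Place 4, from 146016966 to 146018460, gave 17.6, 15.2 and 18.2, below place 3 in each replicate.

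No pair of neighbours in rank among the next places held its order in all replicates. The place from 134583912 to 134584973 gave 17.6, 15.9 and 16.9, with a spread of 0.872 (SD, n = 3), and it lay ahead of the 5.05 Mb gap, in the stretch with 4.17 consensus places per Mb. The place from 126441178 to 126444415 gave 18.5, 13.6 and 17.4, and was above the previous one in 2 of 3 replicates. The place from 145514543 to 145516476 gave 13.8, 13.6 and 18.0, highest in replicate 3. The eighth, from 123874753 to 123875422, gave 18.3, 12.5 and 12.5, highest in replicate 1. Of these 8 places, 4 were in the end part, 1 was in the inner part and 3 lay elsewhere.

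**Figure D2:**
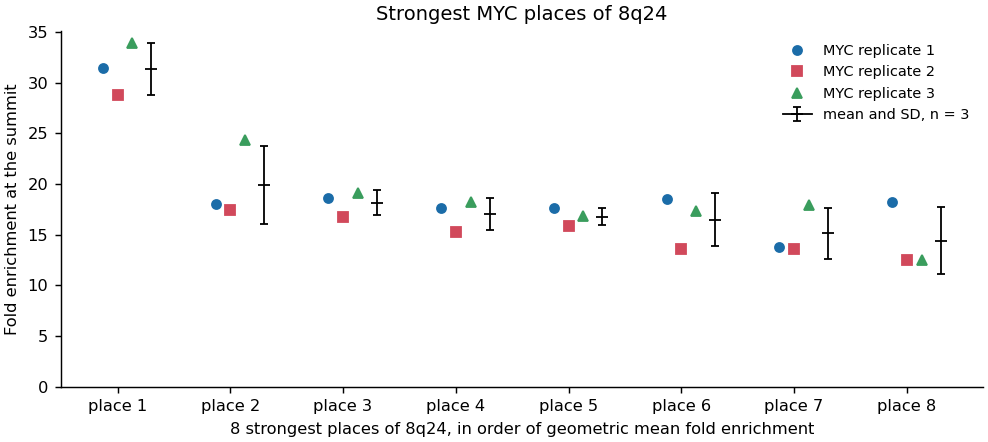
Fold enrichment at the summit of the 8 strongest places of 8q24 found in all replicates, in order of geometric mean, with 1 marker for each MYC replicate and bars for mean ± SD (n = 3). Place 1 stands apart at 28.8 to 33.9, whereas the values of places 2 to 8 overlap between 12.5 and 24.4.

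Other places stood out by shape or position. The widest, from 142082897 to 142086431, spanned 3535 bp with a fold of 10.8, 8.20 and 8.63, and the sixth strongest place above was the next widest at 3238 bp. The place from 145022355 to 145025205 spanned 2851 bp, with 8.26, 6.87 and 10.3. In all, 9 places of 8q24 were 2000 bp or wider. In 16 places a replicate had called more than 1 peak, so wide places can hold several summits. The most isolated places found in all replicates were weak ones. The place from 120428105 to 120429307, 312933 bp from the nearest other consensus place, gave 3.78, 3.76 and 4.80, and that from 119358838 to 119359599, 234352 bp from the nearest, gave 3.66, 3.93 and 3.25.

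The local background under the peaks was compared next, since fold enrichment is measured against it. MACS2 takes as background whichever is highest, the genome-wide level or the control signal in windows around the summit. The recovered value is given as a multiple of the list's own genome-wide level. In 8q24 its median was 1.45, 1.30 and 1.32 in replicates 1, 2 and 3 (mean 1.36 ± 0.0811, SD, n = 3), against 1.31, 1.14 and 1.16 in the rest of chromosome 8. The ratio was 1.11, 1.15 and 1.14, a mean of 1.13 ± 0.0216 (SD, n = 3), above 1 in 3 of 3 replicates (exact two-sided permutation test, p = 0.25, adjusted p = 0.25). Almost no peak of 8q24 sat at the genome-wide level, counted as within 0.1% of it. Over the series 28.9%, 40.4% and 40.0% of peaks did, and in the rest of chromosome 8 the shares were 5.45%, 19.0% and 18.9%. In 8q24 the counts were 0 of 366, 1 of 273 and 0 of 264 peaks. A count of 0 allows a share of up to 0.820% in replicate 1 and 1.14% in replicate 3, for counting error only. This limit is 3 over the number of peaks and treats peaks as independent. Neighbouring peaks can share the windows that set their background, so the limit is a rough guide. The single exception was a peak of replicate 2 from 128413358 to 128413671, with a fold of 3.51 on 23 fragments.

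The raised background did not begin at 8q24. In parts of 5 Mb below 65 Mb of chromosome 8, the median relative background stayed between 1.06 and 1.24 in replicate 1, 1 and 1.07 in replicate 2, and 1 and 1.10 in replicate 3. In the next 10 parts it ran from 1.27 to 1.47, 1.22 to 1.36 and 1.24 to 1.33. In the 7 parts after them, which cover 8q24, it ran from 1.39 to 1.51, 1.26 to 1.36 and 1.25 to 1.37. All parts beyond 65 Mb were thus above all parts before it in each replicate. The single split of the chromosome that best separated low from high values fell at 66.4 Mb in replicates 1 and 2 and at 65.2 Mb in replicate 3, between the neighbouring summits at 64081093 and 66546072 at the widest.

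With this split, which was chosen after the profile was seen, 8q24 resembled its neighbour more than the start of the chromosome. Its background was 1.03 ± 0.00916 times that of the middle part, which had medians of 1.42, 1.26 and 1.29, and 1.25 ± 0.0140 times that of the proximal part below 65 Mb, which had 1.17, 1.04 and 1.04 (SD, n = 3 each). The split was placed by these same background values, so both ratios are descriptions and carry no test. The share of peaks at the genome-wide level was 8.91%, 31.6% and 32.4% in the proximal part. In the middle part 3, 5 and 4 peaks were at it (0.798%, 2.09% and 1.56%). Density did not follow the split: 8q24 was 1.93 ± 0.158 times as dense as the middle part and 1.79 ± 0.139 times as dense as the proximal part (SD, n = 3 each). For scale, the median background was 1.72, 1.56 and 1.57 on chromosome 7 from 70 Mb and 2.07, 1.90 and 1.89 on chromosome 20, both above 8q24 in each replicate. Peaks at the genome-wide level made up 0.860%, 1.62% and 1.31% on chromosome 7 from 70 Mb. They made up 0.0913%, 0.120% and 0.120% on chromosome 20, so their scarcity is not particular to 8q24. Copy number along chromosome 8 was not measured in these files, and its part in the background was not tested. Whether the IgG libraries were the control behind these values is not known from the sources.

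**Figure D3:**
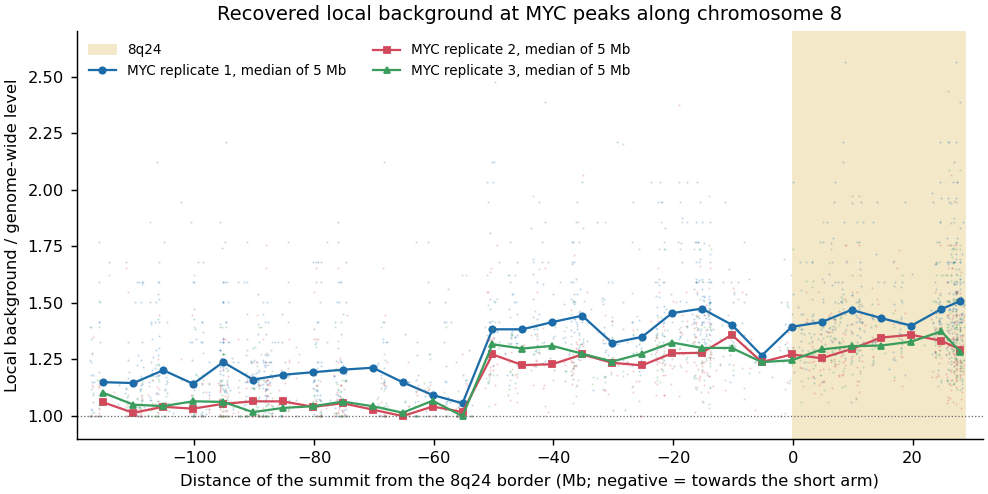
Local background at single MYC peaks of chromosome 8 (dots) and its median in parts of 5 Mb (lines and markers, 1 for each MYC replicate), as a ratio to the genome-wide level, against the distance of the summit from the 8q24 border in Mb. Medians stay at or below 1.24 on the left and rise in a single step about 50 Mb before the shaded 8q24, which lies at 1.25 to 1.51 with no step at its own border.

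Places of 8q24 found in all replicates were ranked by the lowest of their backgrounds over the replicates, and the top 3 had weak peaks. Other places with a high background in single replicates could be stronger. The place from 145030640 to 145031692, with backgrounds of 2.21, 1.76 and 1.21, had a fold of 5.71, 6.04 and 7.54. The top 3 were as follows. From 143550523 to 143551152 the relative background was 1.68, 1.76 and 2.44, and the fold was 2.27, 3.02 and 2.62, the lowest geometric mean of the 194 places. From 127568734 to 127569463 the background was 1.94, 1.55 and 1.97 with a fold of 3.41, 3.88 and 3.08. From 144976734 to 144977752 it was 2.56, 1.54 and 1.74 with a fold of 3.15, 3.50 and 3.23. Background is the denominator of fold, so these values are not independent.

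The final comparison was within the band, between the inner part of 2 Mb and the end part of 2.4 Mb, which was singled out because it is dense. The inner part held 36 places, with 30, 20 and 18 peaks in replicates 1, 2 and 3. The end part held 122 places, with 111, 92 and 100 peaks. Density was 15, 10 and 9 peaks per Mb in the inner part and 46.25, 38.3 and 41.7 in the end part. As a description, the inner part was 0.267 ± 0.0544 times as dense (SD, n = 3).

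Peaks of the inner part were also the weaker ones. Median fold enrichment was 3.08, 3.70 and 4.29 in the inner part and 4.20, 4.45 and 4.75 in the end part. The ratio was 0.733, 0.832 and 0.903, a mean of 0.823 ± 0.0852 (SD, n = 3), below 1 in 3 of 3 replicates (exact two-sided permutation test, p = 0.25, adjusted p = 0.25). With equal numbers of the strongest peaks from each list the ratio was 0.925 and held in fewer replicates (exact two-sided permutation test, p = 0.5). Peaks with a −log10 p-value below 10 made up 53.3%, 50% and 44.4% of the inner part and 21.6%, 21.7% and 28% of the end part. Median width was 419, 318 and 316 bp against 657, 624 and 575.5 bp, a mean ratio of 0.565 ± 0.0656 (SD, n = 3; exact two-sided permutation test, p = 0.25, adjusted p = 0.337).

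The parts also differed in how far the replicates shared their places. In the inner part 10 of 36 places (27.8%) were found in all replicates and 19 (52.8%) were in the consensus. In the end part these were 75 of 122 (61.5%) and 97 (79.5%), above the 45.0% and 62.4% of the series. Counted by peaks, 33.3%, 50% and 72.2% in the inner part lay at places found in all replicates, against 69.4%, 83.7% and 80% in the end part. The ratio was 0.660 ± 0.218 (SD, n = 3), below 1 in 3 of 3 replicates (exact two-sided permutation test, p = 0.25, adjusted p = 0.337). With 18 to 30 peaks per list in the inner part, 1 peak moves these shares by several percentage points.

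**Figure D4:**
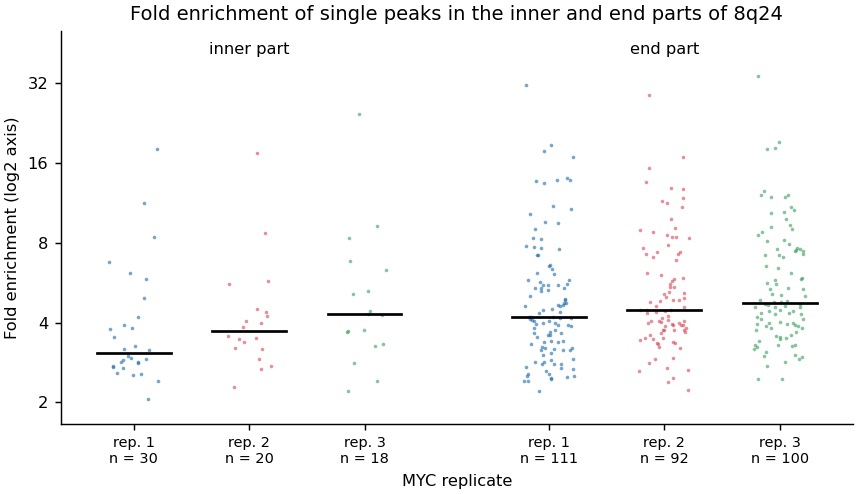
Fold enrichment of single MYC peaks on a log2 axis in the inner part (30, 20 and 18 peaks) and the end part (111, 92 and 100 peaks) of 8q24, by replicate, with the median as a bar. The medians of the inner part lie at 3.08 to 4.29 and those of the end part at 4.20 to 4.75, while the inner part has 1 peak above 16 in each replicate.

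Of the 10 places of the inner part found in all replicates, 1 had a geometric mean fold of at least 10. The share was 11.3% in 8q24 and 11.4% over the series, and with 10 places no difference from these shares is read. After the place from 128806376 to 128808890, the next strongest was from 128865567 to 128867564, with a fold of 11.3, 8.68 and 9.23 (mean 9.73 ± 1.38, SD, n = 3), ranking 23 in 8q24. The place from 129188766 to 129189455 gave 8.39, 5.57 and 6.81, with summits within 5 bp. The place from 128879223 to 128879815 gave 6.74, 4.04 and 5.27, highest in replicate 1 like the 2 before it. The place from 129165332 to 129165796, gave 3.90, 5.76 and 6.33, lowest in replicate 1, where its background was highest at 1.95. These last 2 places were not separated by their spread. Background was close in both parts, with medians of 1.44, 1.28 and 1.31 against 1.50, 1.30 and 1.32. The ratio was 0.979 ± 0.0173 (SD, n = 3), below 1 in 3 of 3 replicates (exact two-sided permutation test, p = 0.25, adjusted p = 0.25).

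**Figure D5:**
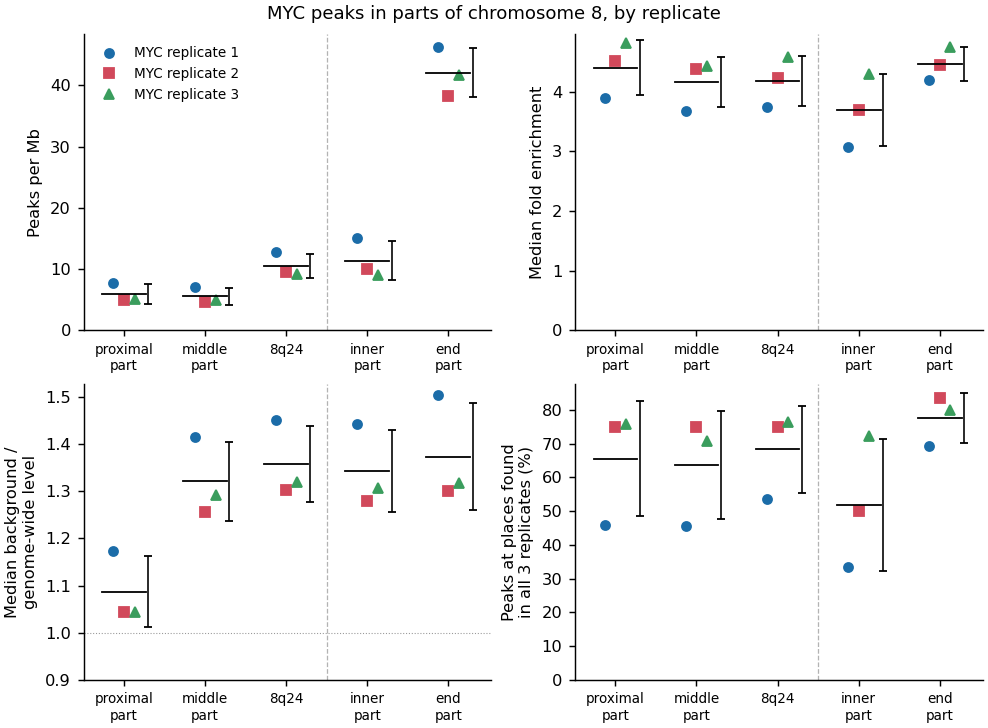
Peaks per Mb, median fold enrichment, median background over the genome-wide level and percent of peaks at places found in all replicates, for the proximal part (below 65 Mb), the middle part (65 Mb to the border), 8q24, and its inner and end parts, with 1 marker for each MYC replicate, the mean as a line and SD bars (n = 3). Density is highest in the end part (38.3 to 46.25 peaks per Mb), and background is raised in the middle part and 8q24 alike.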

How the data were processed

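MYC ChIP-seq peaks of ONS76 cells were analysed from 3 lists, 1 per MYC library, with groups and replicate numbers taken from the labels. According to the study's methods, the authors aligned reads to hg19 with Bowtie2 and called peaks in each library by MACS2 with a q-value cut of 0.05. The sources used here do not name the control that MACS2 received, the treatment of duplicates or the versions. The deposited values per peak are a fold enrichment (a ratio after adding 1 above and below), a −log10 p-value, a −log10 q-value and a score made from the latter. They are not scaled between libraries. Starts of places are given here counted from 1, whereas the deposited starts and the summits that decided membership are counted from 0. The submitters' processing notes name the same tools and build.

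The number of fragments and the local background at each summit were recovered from the deposited fold and −log10 p-value, for 100% of peaks within 0.001. The lowest background of each list served as the genome-wide level. No read totals are in the lists, so this level stands for depth. Recovery and merging were tested on simulated data. Python 3.11.15, pandas 2.3.3, numpy 2.4.6, scipy 1.17.1 and matplotlib 3.10.9 were used.

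Ratios between parts were formed within each replicate and tested by flipping the signs of their log2 values over the replicates (exact two-sided permutation test, smallest possible p = 0.25, or 0.5 with 1 replicate left out), with Benjamini-Hochberg adjustment over 7 planned and 35 added tests. Places were named by a rule: the 8 strongest, the 5 strongest from 128 to 130 Mb, the 3 of highest background, the 3 widest and the 2 most isolated. Background was ranked by its lowest value over the replicates. The border was at 117.7 Mb, the inner part ran from 128 to 130 Mb and the end part from 144 to 146.4 Mb (hg19). The band, its parts and the lists were chosen with earlier results of these data known. The split at 65 Mb was added after the background profile was seen. The 35 added tests include background on either side of this split, although those ratios are read as descriptions only. The 7 planned tests likewise include the density of the inner part over the end part, which is read as a description only.

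The annotation used here is of GRCh38, whose chromosome 8 ends at 145138636, and 116 peaks of chromosome 8 lie past it. No position was carried between builds, no gene was given to a place, the listed genes were not tested for a nearby place, and no sequence is shown. IgG libraries entered no comparison.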

Additional observations from a re-analysis of the deposited data

How the results depend on the processing

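The alternatives were peaks at a q-value of at most 0.01 or 0.001, lists trimmed to the same number of their strongest peaks, a reciprocal overlap of 50%, a consensus of all 3 replicates, fold with nothing added, 8q24 without its end part, an inner part widened by 1 Mb on both sides, and leaving out each replicate in turn. The comparison with chromosome 8 on either side of 65 Mb alone was added after the data were seen. Of 69 values under these settings, 66 kept their direction and their size class. The 66 include the background ratios on either side of 65 Mb, which are no check, as the split was placed by background. They also include 7 density ratios of the inner to the end part. These are no check either, as the end part was singled out because it is dense. Without its end part, 8q24 had 171 consensus places in place of 268, since fewer places enter, and the ratio of the share of peaks found in all replicates fell from 1.07 to 0.992 (exact permutation test, p = 1). Against chromosome 8 from 65 Mb only, the fold ratio turned from 0.969 to 1.005 (exact permutation test, p = 1), and the cause was not tested. The density ratio ranged from 1.33 to 1.93, above 1 under each setting run. The background ratio ranged from 1.12 to 1.14 apart from the comparisons on either side of 65 Mb. Those gave 1.03 and 1.25, but are descriptions only, since that split was placed by the same background values. Consensus places numbered 194 when all replicates were required. Leaving out a replicate gave 200 to 229 consensus places and turned no ratio.

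With 3 libraries no test reaches a p below 0.25, so p-values say nothing of stability. A place missing from a shallow list may still be bound. No paired analysis was possible because the groups that share replicate numbers, MYC and IgG, are not compared here. The ratios between parts of chromosome 8 were formed within each MYC replicate, so the tests on them were paired by library.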

Other observations

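In the sparse stretch of 8q24, from 18.3 to 23.3 Mb beyond its border, few peaks were called. Replicate 1 had 7 peaks there with a median fold of 2.41, replicate 2 had 3 with 3.57 and replicate 3 had 2 with 3.01. The 6 Mb before it held 38, 24 and 19 peaks with median folds of 3.38, 3.49 and 4.75. The 3 Mb after it held 69, 55 and 49 peaks with median folds of 3.56, 3.95 and 4.25.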
